A study of Mus musculus with 11 samples.

Results

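Expression of 10 transcription factor genes of blood formation, Myb, Ikzf1, Bcl11a, Gfi1, Cebpe, Spi1, Runx1, Tal1, Gata1 and Gata2, was followed in the fibrocartilage that caps the condyle of the mouse jaw joint. They were taken by name, 10 of 23420 gene symbols in the deposited count table, where Spi1 stands under its older symbol Sfpi1. The genes were chosen on their measured levels in these same libraries, with the differences between KO and WT and between E2 and Plb already known, so their levels, fold changes and counts past a threshold are given as a description, and no p-value is printed for any of them. RNA came from all cells of the tissue, dissected from C57BL/6 females at 7 weeks of age. Every mouse had been ovariectomized at 6 weeks and then carried a pellet for 1 week, either placebo (Plb) or 0.01 mg of 17β-estradiol (E2) made for release over 60 days. KO animals carry a knockout of estrogen receptor alpha, named ERalphaKO in the labels, which do not describe the allele, and WT animals are wild type. There were 3 KO E2, 3 KO Plb, 3 WT E2 and 2 WT Plb samples. Whether each sample came from its own animal is not stated in the labels, so a p-value measures how far these samples spread, part of which may be technical.

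Blood cells form in steps, each held by a small set of DNA-binding proteins that switch on the genes of a lineage and hold back those of others. Myb keeps immature progenitors dividing and is needed for B cell and myeloid development, while Ikzf1 (Ikaros) and Bcl11a act in lymphoid precursors. Gfi1 and Cebpe act in granulocyte maturation, Spi1 (PU.1) drives myeloid fates and stays on in macrophages and osteoclasts, and Runx1 with its partner Cbfb is needed for blood stem cells to arise. Tal1, Gata1 and Gata2 act in red cell, platelet and mast cell precursors, and Tal1 and Gata2 are also made in endothelium.

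Libraries held 15.7 to 25.5 M counts, so that 3 counts, taken as the floor, equal 0.118 to 0.204 CPM (counts per M of the scaled library total). Esr1, the gene of the targeted receptor, had 2.55 to 3.75 CPM in KO E2, 2.68 to 4.86 CPM in KO Plb, 6.43 to 7.89 CPM in WT E2, and 6.60 and 13.4 CPM in WT Plb. Every KO library thus lay below every WT library, although these counts cover the whole gene and do not show how much receptor remained. Of 10 fibrocartilage genes, which summed to between 57770 and 97340 CPM, Col1a1 made up most, Col2a1 had 3706 to 14720 CPM and Acan 855 to 1800 CPM, while the tendon gene Tnmd had 0.165 to 5.04 CPM. The hypertrophic cartilage gene Col10a1 and the cartilage signal Ihh were lower in KO E2 than in WT E2 (edgeR, adjusted p = 0.0026 and 0.0091), at 739 ± 106 and 15.5 ± 3.04 CPM in KO E2 and 2158 ± 686.5 and 34.9 ± 9.22 CPM in WT E2. Under placebo they had 716 ± 148 and 13.1 ± 3.75 CPM in KO Plb and 1861 ± 348 and 32.2 ± 2.34 CPM in WT Plb. In that comparison 0 of the 10 genes passed by edgeR and 2 by DESeq2. Skeletal muscle genes summed to 10.98 to 14.75 CPM in KO E2, 84.35 to 740.7 CPM in KO Plb, 33.43 to 256.7 CPM in WT E2, and 40.81 and 1203 CPM in WT Plb replicates 1 and 2. WT Plb replicate 2 also held 16.04% of its counts in the ribosomal precursor Rn45s, against 1.83% to 3.13% in the other libraries.

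**Figure D1:**
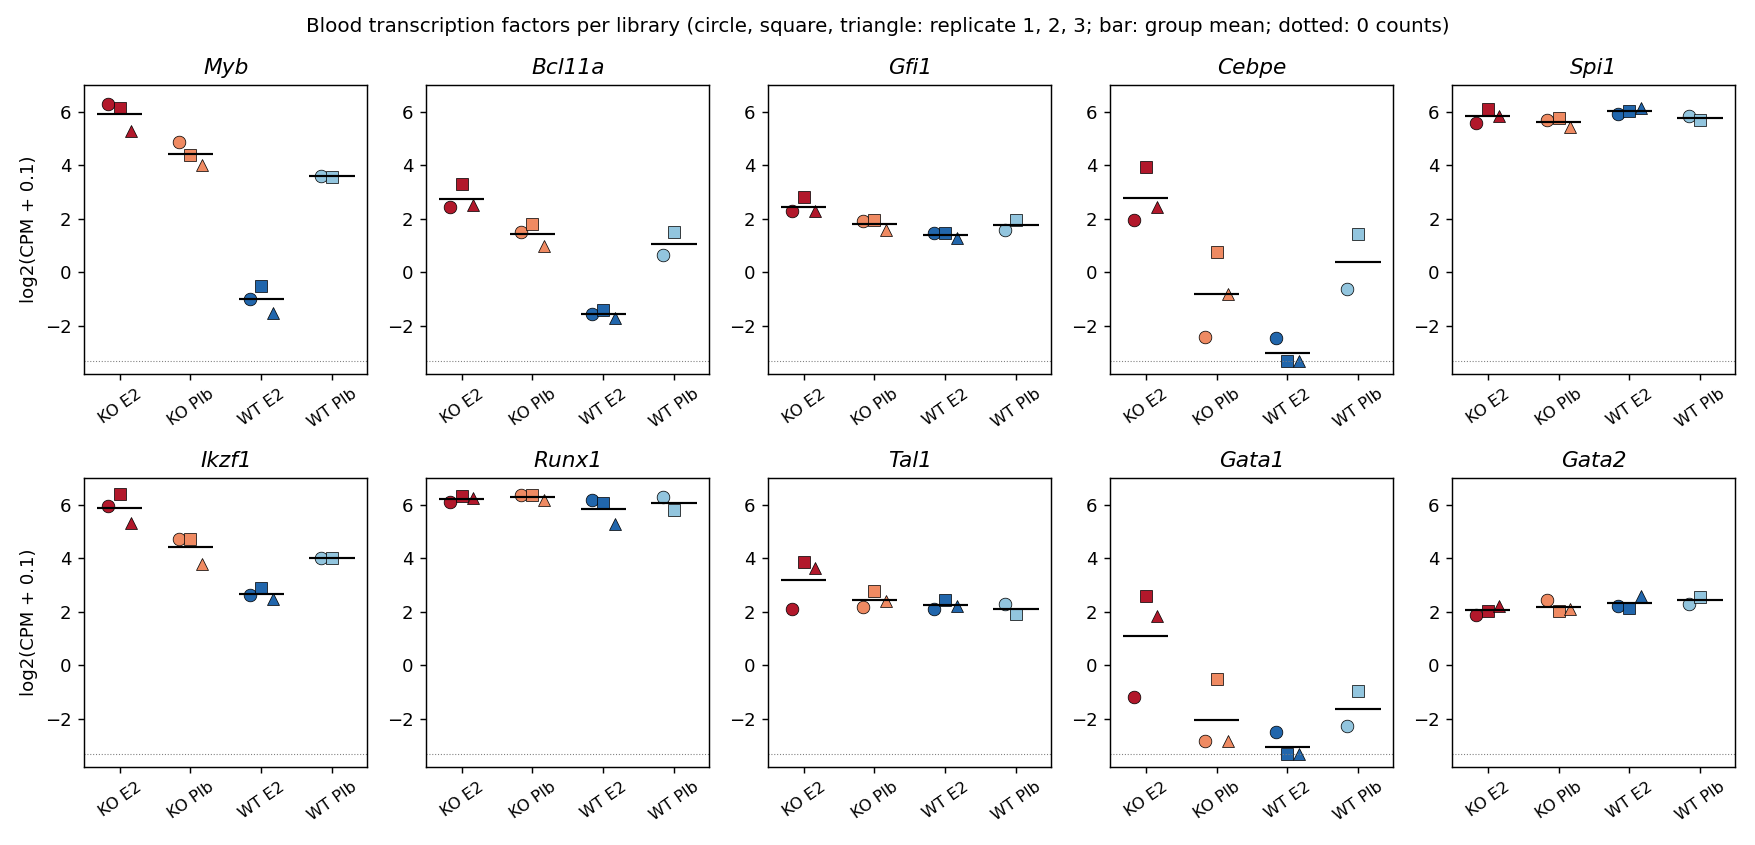
Level of each transcription factor gene in every library, as log2 of CPM plus 0.1, for KO E2, KO Plb, WT E2 and WT Plb from left to right; shapes mark replicate numbers, the bar is the group mean and the dotted line marks 0 counts. Myb, Ikzf1 and Bcl11a were highest in KO E2 and lowest in WT E2, Cebpe and Gata1 had 2 counts each over all 3 WT E2 libraries, and Spi1, Runx1 and Gata2 lay close together in all groups.

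Myb, the progenitor factor, had the largest ratio of highest to lowest level among the members with counts in every library. It stood at 77.8, 70.5 and 38.5 CPM in KO E2, 28.8, 20.6 and 16.0 CPM in KO Plb, 0.395, 0.598 and 0.247 CPM in WT E2, and 12.0 and 11.7 CPM in WT Plb. No 2 of the 4 groups overlapped. Estradiol thus went with opposite differences in the genotypes: Myb was 2.85-fold higher in KO E2 than in KO Plb (log2 1.51, SE 0.28), and 28.7-fold lower in WT E2 than in WT Plb (log2 -4.84, SE 0.45). Between genotypes it was 150.4-fold higher in KO E2 than in WT E2 (log2 7.23, SE 0.42). Under placebo the difference was 0.88 on the log2 scale (SE 0.33), and this did not pass the threshold of an adjusted p under 0.05 in the fit across all genes. The estradiol effect in KO exceeded that in WT by 6.36 (log2, SE 0.54). In RNA of a whole tissue, fewer cells of a type and less RNA per cell cannot be told apart.

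Ikzf1, a zinc finger protein of lymphoid precursors, stayed measurable in WT E2 but lay in the same order as Myb. Its levels were 61.9, 84.7 and 40.0 CPM in KO E2, 26.3, 26.4 and 13.9 CPM in KO Plb, 6.08, 7.27 and 5.52 CPM in WT E2, and 16.1 and 16.0 CPM in WT Plb. KO E2 and WT E2 each stood clear of all other groups, while KO Plb and WT Plb overlapped. Ikzf1 was 2.80-fold higher in KO E2 than in KO Plb (log2 1.48, SE 0.30), and 9.88-fold higher in KO E2 than in WT E2 (log2 3.30, SE 0.32). In WT the estradiol difference was -1.35 (log2, SE 0.35) and did not pass the threshold. The genotypes differed in the estradiol effect by 2.84 (log2, SE 0.46).

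Bcl11a, a repressor that B cell precursors need, was the lowest of these 3 genes. Its levels were 5.25, 9.68 and 5.59 CPM in KO E2, 2.75, 3.42 and 1.87 CPM in KO Plb, 0.237, 0.276 and 0.206 CPM in WT E2, and 1.45 and 2.72 CPM in WT Plb. As for Ikzf1, only the placebo groups overlapped. Bcl11a was 2.55-fold higher in KO E2 than in KO Plb (log2 1.35, SE 0.31) and 8.47-fold lower in WT E2 than in WT Plb (log2 -3.08, SE 0.45). KO E2 exceeded WT E2 by 27.9-fold (log2 4.80, SE 0.41), and the difference between the estradiol effects was 4.43 (log2, SE 0.55).

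The start regions of Myb and Ikzf1, both higher in KO E2 than in KO Plb, are shown as the 250 bases before each start in RefSeq on GRCm38.p6, a later build than the mm9 used for the reads. Myb has 1 such window at chr10:21160985-21161234, minus strand. Ikzf1 has 2 on the plus strand, an outer one at chr11:11685675-11685924 and an inner one at chr11:11689927-11690176. None of the 3 windows overlaps an annotated exon in GENCODE M21. They run 5′ to 3′ along the gene, with capitals on exact matches, on either strand, of 5 motifs: AGATAA of the family of Gata1, AGGAAG of the ETS family of Spi1, TGTGGT of the family of Runx1, TTGCGCAA of the family of Cebpe, and AGGTCA, a half-site of the estrogen response element.
Myb: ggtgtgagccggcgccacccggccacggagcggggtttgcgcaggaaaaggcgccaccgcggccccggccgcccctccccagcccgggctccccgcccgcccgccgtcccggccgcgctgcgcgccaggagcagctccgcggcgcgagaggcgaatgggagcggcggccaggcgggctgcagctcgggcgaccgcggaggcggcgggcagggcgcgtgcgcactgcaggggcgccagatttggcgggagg
Ikzf1 outer: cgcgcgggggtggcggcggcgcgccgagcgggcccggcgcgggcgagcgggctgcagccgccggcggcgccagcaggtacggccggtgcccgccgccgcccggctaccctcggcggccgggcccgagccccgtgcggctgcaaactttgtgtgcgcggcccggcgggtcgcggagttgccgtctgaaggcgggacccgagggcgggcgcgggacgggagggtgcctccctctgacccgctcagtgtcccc
Ikzf1 inner: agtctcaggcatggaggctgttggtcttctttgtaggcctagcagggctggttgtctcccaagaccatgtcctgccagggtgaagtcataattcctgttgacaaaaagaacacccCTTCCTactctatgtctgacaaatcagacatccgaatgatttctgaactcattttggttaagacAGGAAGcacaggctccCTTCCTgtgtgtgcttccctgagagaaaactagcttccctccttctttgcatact
The Myb and outer Ikzf1 windows are rich in G and C, at 81.2% and 82.0%, with 40 and 44 CG pairs, against a median G and C content of 52.4% over all windows. The inner Ikzf1 window has 47.6% and 1 CG pair, and it holds 3 matches of AGGAAG, at 135, 71 and 55 bases before the start. A match is a run of letters, not a measured binding site.

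Gfi1, a repressor that guides granulocyte and lymphoid precursors, differed in the same directions by smaller amounts. It had 4.75, 6.83 and 4.74 CPM in KO E2, 3.64, 3.80 and 2.89 CPM in KO Plb, 2.68, 2.62 and 2.31 CPM in WT E2, and 2.91 and 3.74 CPM in WT Plb. KO E2 lay above every other library and WT E2 below every other. The gene was 2.13-fold higher in KO E2 than in WT E2 (log2 1.09, SE 0.21). The other contrasts did not pass the threshold, with log2 values of 0.66 (SE 0.21) for E2 over Plb in KO and -0.38 (SE 0.24) for E2 over Plb in WT.

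Cebpe, which switches on granule genes late in neutrophil and eosinophil maturation, varied more within groups than any gene above. It had 3.80, 15.1 and 5.32 CPM in KO E2, 0.0846, 1.59 and 0.467 CPM in KO Plb, 0.0789, 0 and 0 CPM in WT E2, and 0.538 and 2.59 CPM in WT Plb. All 3 KO E2 libraries were above the rest. WT E2 replicate 1 and KO Plb replicate 1 had 2 counts each, under the floor of 3, and cannot be ordered. Cebpe had 442 counts in KO E2 and 2 in WT E2, a ratio of 276 with an exact 95% counting interval of 75.9 to 2286. In WT it had 2 counts under E2 and 48 under Plb, a ratio of 0.0194 with an interval of 0.00229 to 0.0741. The interval covers counting error only. Against KO Plb, Cebpe was 11.4-fold higher in KO E2 (log2 3.51, SE 0.91), which did not pass the threshold.

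Spi1 and Runx1 differed little between group means. Spi1, the myeloid and osteoclast factor, had 47.1, 68.9 and 56.4 CPM in KO E2, 51.0, 54.7 and 43.2 CPM in KO Plb, 60.8, 64.2 and 70.8 CPM in WT E2, and 56.9 and 52.1 CPM in WT Plb. Its largest log2 difference among the pairwise comparisons was 0.26 (SE 0.15, 95% interval -0.06 to 0.58), for E2 over Plb in WT, where all 3 E2 libraries were above both Plb libraries. Runx1, which also has roles in cartilage and bone, had 68.4, 81.4 and 77.3 CPM in KO E2, 82.3, 81.6 and 72.8 CPM in KO Plb, 71.8, 67.7 and 39.2 CPM in WT E2, and 78.6 and 56.0 CPM in WT Plb. The groups overlapped in each comparison, and WT E2 replicate 3 was the lowest library. The largest Runx1 difference was 0.35 (log2, SE 0.20, 95% interval -0.11 to 0.80), for KO E2 over WT E2.

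Of the red cell and platelet factors, Gata1 differed between the estradiol groups, and Tal1 and Gata2 did not pass the threshold. Gata1, the main activator of red cell genes, had 0.335, 5.88 and 3.53 CPM in KO E2, 0.0423, 0.610 and 0.0425 CPM in KO Plb, 0.0789, 0 and 0 CPM in WT E2, and 0.108 and 0.408 CPM in WT Plb. KO E2 replicate 1 lay within the range of the placebo libraries, and the other two KO E2 libraries stood above all. Against WT E2, KO E2 had 184 counts to 2, a ratio of 115 with an exact 95% counting interval of 31.4 to 956, and every KO E2 library was above every WT E2 library. Gata1 has 1 window on the minus strand at chrX:7967911-7968160, free of annotated exons, with capitals as above.
Gata1: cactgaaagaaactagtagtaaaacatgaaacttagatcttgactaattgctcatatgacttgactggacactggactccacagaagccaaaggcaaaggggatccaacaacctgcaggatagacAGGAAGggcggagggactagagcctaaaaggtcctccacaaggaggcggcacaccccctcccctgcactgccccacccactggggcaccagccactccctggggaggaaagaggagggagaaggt
It holds 1 match of AGGAAG, 125 bases before the start, and none of AGATAA.

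Tal1, a partner of the GATA factors, was like Gata1 lowest in KO E2 replicate 1 of that group, with 4.24, 14.3 and 12.3 CPM in replicates 1 to 3. It had 4.40, 6.71 and 5.27 CPM in KO Plb, 4.18, 5.34 and 4.53 CPM in WT E2, and 4.85 and 3.67 CPM in WT Plb, and the groups overlapped in each comparison. The log2 difference of KO E2 over WT E2 was 1.14 (SE 0.36). Gata2, a factor of stem cells, mast cells and endothelium, had 3.57, 4.04 and 4.60 CPM in KO E2, 5.33, 3.94 and 4.21 CPM in KO Plb, 4.54, 4.28 and 5.98 CPM in WT E2, and 4.85 and 5.78 CPM in WT Plb. The groups of Gata2 overlapped in each comparison, although every KO E2 library was below both WT Plb libraries, and its largest log2 difference among the comparisons was -0.27 (SE 0.20, 95% interval -0.70 to 0.16), for KO E2 over WT E2.

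**Figure D2:**
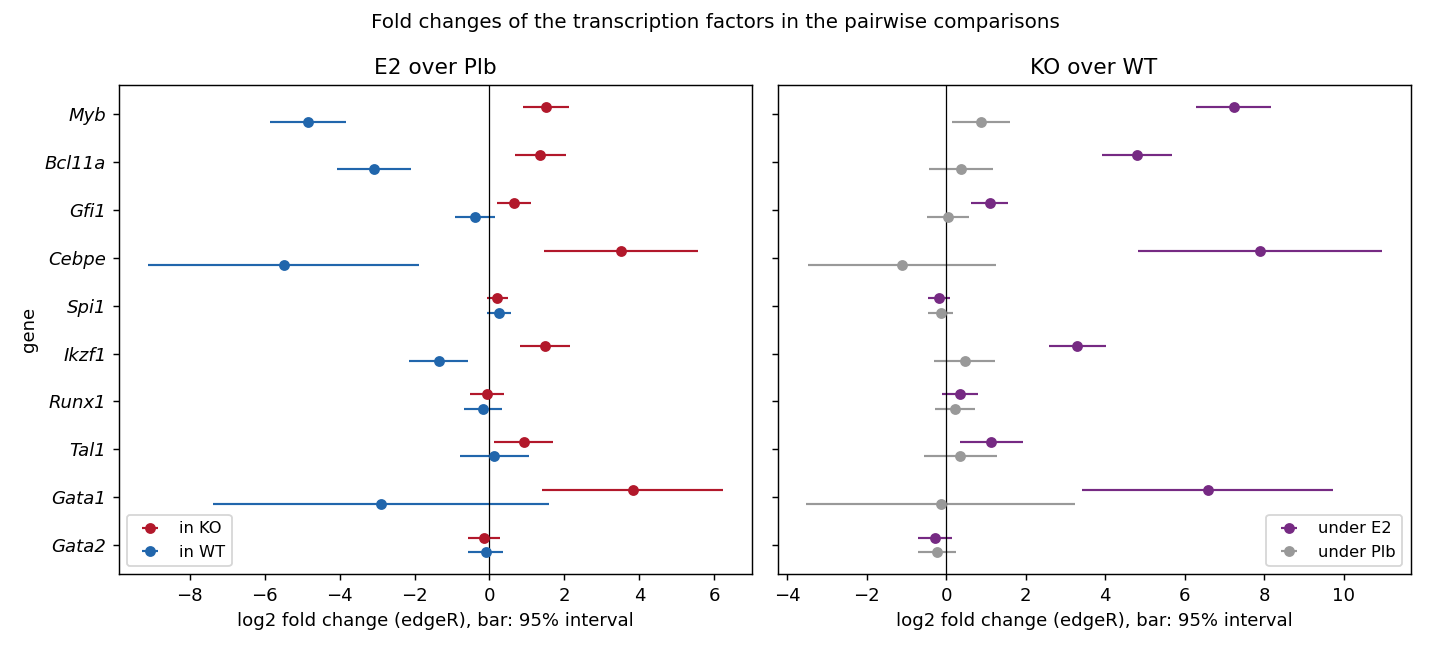
Log2 fold change of each gene with its 95% interval from edgeR, for E2 over Plb in KO and WT (left) and for KO over WT under E2 and Plb (right). Myb, Ikzf1 and Bcl11a lie right of 0 for E2 in KO and left of 0 for E2 in WT; the WT E2 values of Cebpe and Gata1 rest on 2 counts each, so these fitted values depend on the small constant that edgeR adds.

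Over the 5 comparisons, 10 of 10 members entered the fit of 14531 genes, Cebpe and Gata1 through the groups in which they were high. In KO E2 against KO Plb, 3 members (Myb, Ikzf1 and Bcl11a) passed the threshold as higher and 0 as lower, where 2.36% of all genes passed as higher and 2.73% in either direction. In 5 members every KO E2 library was above every KO Plb library, as in 12.4% of all genes. With the replicate number as a block the count was 5, with Cebpe and Gata1 added, and the count over all genes was 629 in place of 396. The 3 calls changed with the libraries used. The count was 0 without KO E2 replicate 2, KO Plb replicate 2, KO Plb replicate 3 or WT E2 replicate 1, and 1 (Myb) without KO Plb replicate 1, WT E2 replicate 2 or WT E2 replicate 3. The WT libraries enter through the shared estimate of spread. Of 11 fits with 1 library left out, Myb passed in 7, Bcl11a in 3 and Ikzf1 in 1. The Ikzf1 call was also lost with no filter on low counts.

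In WT E2 against WT Plb, 2 members (Myb and Bcl11a) passed as lower and 0 as higher, where 0.895% of all genes passed as lower and 0.654% as higher. In 6 members every WT E2 library was below both WT Plb libraries, as in 13.8% of all genes, and in 1 member (Spi1) every one was above, as in 13.2%. Both calls held with any 1 library left out, and limma-voom made neither. Under placebo 0 members passed in KO against WT by edgeR, DESeq2 or limma-voom. With the replicate number as a block 1 (Myb) passed, and the count over all genes was 17 in place of 1. By edgeR without the block 0.00688% of all genes passed, and 1 member had an unadjusted p under 0.05. In 1 member, Myb, every KO Plb library was above both WT Plb libraries, as in 13.2% of all genes, and in 0 members below both, as in 13.8%.

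Under estradiol 6 members (Myb, Bcl11a, Ikzf1, Gfi1, Cebpe and Gata1) passed as higher in KO than in WT and 0 as lower, where 7.27% of all genes passed as higher and 11.5% in either direction. In the same 6 every KO E2 library was above every WT E2 library, as in 17.7% of all genes, and in 0 members below, as in 16.9%. The call of Gata1 was lost without any of the 3 WT E2 libraries and in limma-voom. The difference between the estradiol effects passed for 3 members (Myb, Bcl11a and Ikzf1), where 0.840% of all genes passed in that direction and 1.15% in either. That of Ikzf1 was lost without either WT Plb library or any WT E2 library. The median log2 difference of the 10 members was 1.13 for E2 in KO, -0.87 for E2 in WT, 0.14 for KO over WT under Plb, 2.22 for KO over WT under E2 and 1.94 for the difference of effects, against medians of all genes between -0.0033 and 0.0023. Since the members were chosen with these values known, nothing is read from the counts, and the comparisons share libraries.

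Of relatives of these factors in the same gene families, 22 were listed and 19 tested. Between KO E2 and WT E2, 6 were higher and 0 lower (quasi-likelihood test of edgeR, Benjamini-Hochberg adjusted over all genes, as for every adjusted p here), and the median of the 19 was 0.35 on the log2 scale. Spib, the B cell relative of Spi1, had 69.6 ± 23.0 CPM in KO E2 and 0.511 ± 0.169 CPM in WT E2 (SD, n = 3 each; 136-fold, adjusted p = 0.00062). Ikzf3 (Aiolos), the relative of Ikzf1 in later B cells, had 12.0 ± 3.30 CPM in KO E2 and 0.261 ± 0.233 CPM in WT E2 (46.1-fold, adjusted p = 0.00017). Gfi1b, the red cell and platelet relative of Gfi1, had 1.92 ± 0.759 CPM in KO E2 and 0 counts in all WT E2 libraries (adjusted p = 0.0034). Lyl1, a relative of Tal1, was 3.09-fold higher, at 13.6 ± 6.00 CPM in KO E2 and 4.38 ± 0.157 CPM in WT E2 (adjusted p = 0.0059).

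The Myb relatives Mybl1 and Mybl2 were the 2 relatives called between KO E2 and KO Plb. Mybl2, which serves the cell cycle in many tissues, had 8.30 ± 1.60 CPM in KO E2 and 4.56 ± 0.148 CPM in KO Plb (adjusted p = 0.018), and Mybl1 had 5.85 ± 1.72 CPM in KO E2 and 2.92 ± 0.584 CPM in KO Plb (adjusted p = 0.045). No relative passed between them without KO Plb replicate 1 or 2. In WT, 1 relative fell, Spib, to 0.511 ± 0.169 CPM in WT E2, against 13.4 ± 1.48 CPM in WT Plb (n = 2; adjusted p = 0.022). The estradiol effects of Spib and Ikzf3 differed between genotypes by 5.67 (SE 0.88, adjusted p = 0.027) and 3.69 (SE 0.75, adjusted p = 0.046) on the log2 scale. The fall of Spib in WT and both differences of effects were lost in limma-voom, and without either WT Plb library, WT E2 replicate 1 or WT E2 replicate 3; the differences of effects were also lost without KO E2 replicate 2.

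Among 21 tested partners and other blood factors, 10 were higher in KO E2 than in WT E2 and 0 lower (6 without WT E2 replicate 3), with a median of 0.38 (log2). Pax5, which fixes B cell identity, had 7.79 ± 2.59 CPM in KO E2 and 0.210 ± 0.0691 CPM in WT E2 (35.9-fold, adjusted p = 6.9e-05). Irf4 was 19.1-fold and Irf8 2.75-fold higher (adjusted p = 0.00054 and 0.0025), both interferon regulatory factors of B and myeloid cells that bind DNA with Spi1 or Spib. Tcf3 (E2A), the E protein partner of Tal1, was 1.47-fold higher, at 120.8 ± 15.3 CPM in KO E2 and 82.3 ± 6.16 CPM in WT E2 (adjusted p = 0.0038). The direct partners Cbfb and Lmo2 were not called: Cbfb, which pairs with Runx1, had 231 to 245 CPM in KO E2 and 213 to 240 CPM in WT E2, and Lmo2, the bridge of the Tal1 and GATA complex, had 14.9 to 27.5 CPM in KO E2 and 16.6 to 20.3 CPM in WT E2. Both partners were named after their values were seen.

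Within KO, 1 of the 21 rose with estradiol and 1 fell. Irf8 rose to 30.1 ± 6.92 CPM in KO E2, against 14.5 ± 3.97 CPM in KO Plb (adjusted p = 0.035). Ldb1, which links distant sites bound by GATA and Tal1 complexes, fell to 97.8 ± 5.23 CPM in KO E2, against 137.6 ± 15.3 CPM in KO Plb (adjusted p = 0.032). With the replicate number as a block 5 of the 21 were called in place of 2. Neither call was made without KO E2 replicate 2, KO Plb replicate 1 or WT E2 replicate 2. In WT, 1 fell, Pax5, to 0.210 ± 0.0691 CPM in WT E2, against 1.34 ± 0.162 CPM in WT Plb (adjusted p = 0.042), and 0 rose; limma-voom called 0, and so did edgeR without either WT Plb library, any WT E2 library, KO Plb replicate 2 or KO E2 replicate 1.

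Surface proteins and cytokine receptors of progenitors, 18 tested, moved in both directions between KO E2 and WT E2, with 5 higher and 3 lower (5 calls in all without WT E2 replicate 1). Il7r, the receptor for the cytokine that B cell precursors depend on, had 19.7 ± 7.36 CPM in KO E2 and 0.433 ± 0.278 CPM in WT E2 (45.7-fold, adjusted p = 0.00018). Flt3, a receptor of early lymphoid and myeloid progenitors, had 2.39 ± 1.55 CPM in KO E2 and 0.0789 ± 0.137 CPM in WT E2 (adjusted p = 0.0083). Ly6a (Sca-1) and Csf1r, the macrophage and osteoclast growth factor receptor, were lower, at 25.6 ± 0.327 and 297 ± 14.7 CPM in KO E2 and 40.0 ± 4.29 and 412 ± 10.5 CPM in WT E2 (adjusted p = 0.0065 and 0.0081). Kit, the stem cell factor receptor, had 5.81 to 11.1 CPM in KO E2 and 3.59 to 7.50 CPM in WT E2 and was not called; it was named after its values were seen.

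Within KO, Il7r rose to 19.7 ± 7.36 CPM in KO E2, against 5.80 ± 1.12 CPM in KO Plb (adjusted p = 0.047). In WT it fell to 0.433 ± 0.278 CPM in WT E2, against 3.55 ± 2.14 CPM in WT Plb (adjusted p = 0.032). The Il7r effects of estradiol differed between genotypes by 4.83 (log2, SE 0.70, adjusted p = 0.010). These calls rested on few libraries: 0 receptors passed between KO E2 and KO Plb without KO E2 replicate 2, any KO Plb library or WT E2 replicate 2 or 3, 0 passed in WT without any WT E2 library or KO Plb replicate 2, and 0 differences of effects passed without WT Plb replicate 1. In limma-voom 0 receptors passed in WT and 0 in the difference of effects. Between KO E2 and KO Plb 2 of the 18 receptors passed, against 6 with the replicate block and 1 in limma-voom.

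Markers of several blood lineages also differed between groups, and their part in the members' values was not tested. B lineage genes, 15 listed and 14 tested, summed to 414.4, 427.8 and 239.2 CPM in KO E2, 252.0, 200.7 and 113.4 CPM in KO Plb, 16.3, 18.35 and 21.89 CPM in WT E2, and 78.39 and 74.57 CPM in WT Plb. All 14 were higher in KO E2 than in WT E2, 7 were lower in WT E2 than in WT Plb, and 1 (Blnk, an adaptor of B cell receptor signalling) was higher in KO E2 than in KO Plb, where the fit with the replicate block called 5. The 14 calls under estradiol held with any 1 library left out, whereas the 7 in WT dropped to 2 without WT Plb replicate 1, WT E2 replicate 1 or WT E2 replicate 3 and to 0 in limma-voom, and Blnk was lost without any 1 of 6 libraries. Vpreb3, part of the B cell precursor program, fell to 0.175 ± 0.129 CPM in WT E2, against 5.31 ± 1.25 CPM in WT Plb (adjusted p = 0.0020). Pou2af1, a coactivator of B cells, had 52.5 ± 16.5 CPM in KO E2 and 0.504 ± 0.257 CPM in WT E2 (adjusted p = 0.00020). Under placebo 0 of the 14 passed between KO and WT by edgeR or limma-voom and 3 by DESeq2, and 10 were higher in KO at an unadjusted p under 0.05.

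Late neutrophil granule genes were highest in KO E2, as Cebpe was, and their part in its values was not tested. The 11 late genes, such as Camp, Ngp and Lcn2, summed to 1231, 4506 and 1526 CPM in KO E2, 0.550, 707.4 and 159.1 CPM in KO Plb, 6.47, 46.2 and 10.1 CPM in WT E2, and 170.8 and 340.3 CPM in WT Plb. In KO Plb replicate 1, where Cebpe was also lowest of that group, 5 of these 11 genes had 0 counts. Between KO E2 and WT E2, 7 of 11 were higher and 0 lower. That count was 1 when any single WT E2 library, KO E2 replicate 2 or KO E2 replicate 3 was left out, and 0 in limma-voom. DESeq2 called all 11, and 11 were higher at an unadjusted p under 0.05. Between KO E2 and KO Plb, 1 late gene rose, Fcnb, to 13.6 ± 10.9 CPM in KO E2, against 0.745 ± 0.647 CPM in KO Plb (adjusted p = 0.047), and it was lost in limma-voom and in 10 of 11 fits with 1 library left out. With the replicate block 2 late and 2 early genes were called between KO E2 and KO Plb, against 1 and 0 without it. The 5 early granule genes of promyelocytes (Mpo, Elane, Prtn3, Ctsg and Ms4a3) were all higher too, and Elane had 34.0 ± 25.9 CPM in KO E2 and 0.212 ± 0.268 CPM in WT E2 (adjusted p = 0.031); without WT E2 replicate 1 or 3 none of the 5 passed, and limma-voom called 1. The early genes summed to 105.4 to 328.0 CPM in KO E2, 0.972 to 75.59 CPM in KO Plb, 0.138 to 2.76 CPM in WT E2, and 63.31 and 177.0 CPM in WT Plb. Basophil, mast cell and eosinophil genes summed to 122.0 to 428.3 CPM in KO E2, 0.888 to 137.2 CPM in KO Plb, 0.618 to 4.14 CPM in WT E2, and 37.74 and 192.3 CPM in WT Plb. Of the 7 tested, 6 were higher in KO E2 than in WT E2, and the basophil proteases Prss34 and Mcpt8 had 3.32 ± 1.04 and 1.66 ± 0.827 CPM in KO E2 and 0 counts in WT E2 (adjusted p = 0.00064 and 0.00068). Only these 2 were called for E2 over Plb, lower in WT and higher in KO, and for the difference of effects. No count fell below 2 with 1 library left out, and limma-voom called 2, 3 and 3. In KO Plb they had 0.0469 ± 0.0812 and 0.0298 ± 0.0259 CPM, means under the floor, and in WT Plb 3.25 ± 1.85 and 1.42 ± 0.490 CPM.

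Summed red cell and platelet genes varied widely among the KO E2 libraries. Ermap, a red cell membrane gene, ranged from 0.782 to 17.2 CPM in KO E2 and 0.289 to 0.553 CPM in WT E2 (adjusted p = 0.045). The 14 erythroid genes in the table summed to 221.2, 1092 and 531.4 CPM in KO E2, 81.13, 301.8 and 129.4 CPM in KO Plb, 392.8, 352.2 and 378.4 CPM in WT E2, and 57.88 and 239.5 CPM in WT Plb. Within KO E2 the lowest sum was in the library lowest in Gata1. The 8 platelet genes summed to 14.52 to 102.3 CPM in KO E2, 12.98 to 17.58 CPM in KO Plb, 17.43 to 19.99 CPM in WT E2, and 22.88 and 27.83 CPM in WT Plb. Between KO E2 and WT E2, 2 of 10 tested erythroid genes, among them Ermap, and 3 of 8 platelet genes (Gp9, Ppbp and Gp1ba) were higher and 0 lower. Neither erythroid call was made without WT E2 replicate 1, 2 or 3, KO E2 replicate 2 or 3, KO Plb replicate 3 or either WT Plb library, and no platelet call without WT E2 replicate 1 or 3 or KO E2 replicate 2 or 3; limma-voom made neither. DESeq2 called 7 erythroid and 6 platelet genes between KO E2 and WT E2, and 8 and 6 were higher at an unadjusted p under 0.05. Between KO E2 and KO Plb 0 erythroid genes passed by edgeR, DESeq2 or limma-voom and 1 with the replicate block, and 2 were higher at an unadjusted p under 0.05. Of the platelet genes 0 passed there by edgeR, limma-voom or the replicate block and 4 by DESeq2, and 6 were higher at an unadjusted p under 0.05. The adult globin genes Hba-a1, Hba-a2, Hbb-b1 and Hbb-b2 were listed at 0 in every library, and the beta globin entry Beta-s, matched to Hbb-bs by its RefSeq synonym, was not, at 201.8 to 840.5 CPM in KO E2 and 328.6 to 368.7 CPM in WT E2.

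Spi1, Runx1, Tal1 or Gata2 are also made in macrophages, osteoclasts or endothelium, and some genes of these cells were lower in KO E2 than in WT E2. Osteoclast genes summed to 8681 to 10260 CPM in KO E2, 9348 to 10620 CPM in KO Plb, 13280 to 13650 CPM in WT E2, and 11470 and 9565 CPM in WT Plb. The sums of macrophage genes overlapped between KO E2 (668.7 to 1290 CPM) and WT E2 (821.8 to 1143 CPM), and endothelial genes summed to 416.0 to 458.5 CPM in KO E2 and 534.9 to 582.6 CPM in WT E2. Lyz2 was the largest part of the macrophage sum, at 561.1 ± 282.5 CPM in KO E2, where the sum had a mean of 967 CPM. In WT E2 it had 265.7 ± 78.3 CPM, where the sum had a mean of 931.2 CPM. Cd163 had 4.94 ± 2.10 CPM in KO E2 and 2.72 ± 0.984 CPM in WT E2. Lyz2 and Cd163 had the higher mean in KO E2 without passing and were named after their values were seen. Of 11 macrophage genes 7 were lower and 0 higher, of 12 osteoclast genes 7 were lower and 0 higher, and of 10 endothelial genes 5 were lower and 0 higher. Acp5, the osteoclast phosphatase, had 3048 ± 232 CPM in KO E2 and 5372 ± 427 CPM in WT E2 (adjusted p = 0.00049), and C1qa, a complement gene of macrophages, had 59.1 ± 12.1 CPM in KO E2 and 114.5 ± 31.8 CPM in WT E2 (adjusted p = 0.012). In WT, Acp5 rose to 5372 ± 427 CPM in WT E2, against 3515 ± 465 CPM in WT Plb (adjusted p = 0.022), a call lost without WT Plb replicate 2 or WT E2 replicate 1. Leaving out KO E2 replicate 2 left 3 macrophage genes called. Of 19 cell cycle genes, 14 were higher in KO E2 than in KO Plb and 10 higher in KO E2 than in WT E2, with 0 lower, and Top2a, a topoisomerase of dividing cells, had 149 ± 26.6 CPM in KO E2 and 56.3 ± 2.53 CPM in KO Plb (adjusted p = 0.0020). Leaving out KO E2 replicate 2 left 9 and 4 of these calls, and leaving out KO Plb replicate 1 or 2 left 9 of the 14. Skeletal muscle genes were low in KO E2, where 0 of 12 passed against KO Plb by edgeR or limma-voom and 10 by DESeq2, and 11 were lower at an unadjusted p under 0.05. The part of each of these lists in the members' values was not tested.

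**Figure D3:**
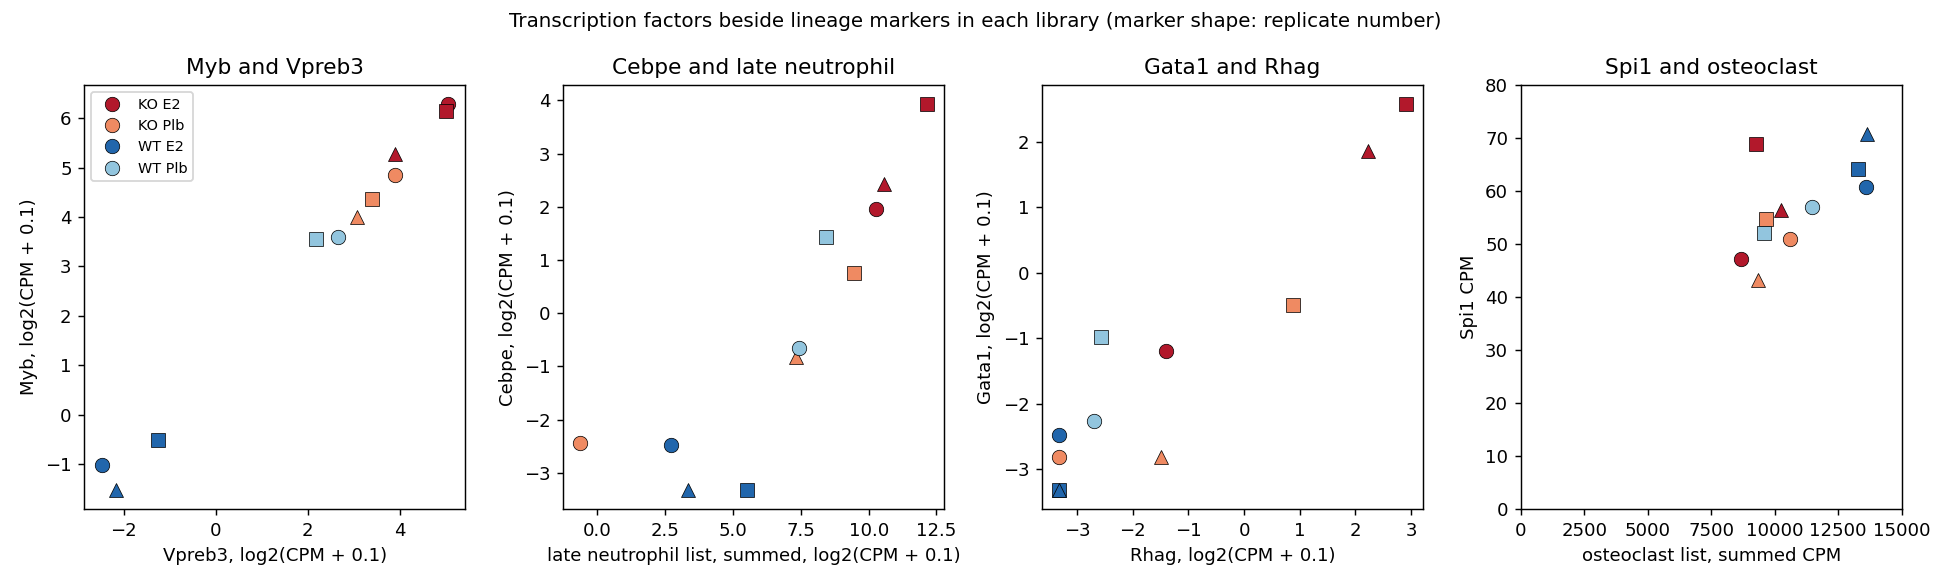
Transcription factor levels beside lineage markers in each of the 11 libraries: Myb and Vpreb3, Cebpe and the summed late neutrophil genes, and Gata1 and Rhag as log2 of CPM plus 0.1, and Spi1 and the summed osteoclast genes in CPM from 0. Myb and Vpreb3 run along a line with WT E2 at the low end, KO Plb replicate 1 is lowest in late neutrophil genes, and Spi1 stays between 43.2 and 70.8 CPM.

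Myb was also set against other blood genes. Its counts were 151%, 62.6% and 62.0% of those of Ptprc (CD45), the common surface protein of white blood cells, in KO E2, 84.3%, 44.4% and 58.7% in KO Plb, 0.883%, 1.25% and 0.667% in WT E2, and 34.5% in both WT Plb libraries. Ptprc itself had 51.5, 113 and 62.1 CPM in KO E2 and 44.7, 47.8 and 37.1 CPM in WT E2, and these groups did not overlap. Relative to the summed B lineage genes, a list that does not hold Myb, its level was 18.8%, 16.5% and 16.1% in KO E2, 11.4%, 10.3% and 14.1% in KO Plb, 2.42%, 3.26% and 1.13% in WT E2, and 15.3% and 15.7% in WT Plb. The WT E2 libraries were low on both scales, while KO E2 and KO Plb overlapped relative to Ptprc and did not relative to the B lineage sum. That sum differed in makeup between groups. Blnk and Cd22 had means of 9.97 and 4.39 CPM in a mean sum of 18.85 CPM in WT E2. In KO E2 they had 25.5 and 10.8 CPM in 360.5 CPM. Against a single B lineage gene the reading differs: Vpreb3 had a mean of 0.175 CPM in WT E2 and 5.31 CPM in WT Plb, where Myb had 0.413 and 11.85 CPM. Spi1 was 91.4%, 61.1% and 90.9% of Ptprc in KO E2 and 136%, 134% and 191% in WT E2, with the KO E2 libraries lower.

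Per length of the annotated exons (CPM per kb, GENCODE M21), Spi1 was the highest member, with a mean of 21.1 over the 11 libraries. It was followed by Runx1 at 5.87, Ikzf1 at 4.79, Myb at 2.82, Cebpe at 2.169, Tal1 at 1.45, Gfi1 at 1.17, Gata2 at 0.861, Gata1 at 0.411 and Bcl11a at 0.231. The order depended on the group. Per kb, Myb was at 6.97 in KO E2 and 0.0463 in WT E2, above Runx1 (6.29) in KO E2 and far below it (4.95) in WT E2. Runx1 and Myb in KO E2 lie within the spread of their libraries. The annotation used for counting is not given in the sources used here, so these lengths are approximate.

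Genes whose log2(CPM + 0.5) tracked a member most closely over all 11 libraries were named from 12552 tested genes of at least 1 CPM on average, as a description with no test. Symbols starting with Gm and a digit, Mir, Snor, Igh, Igk, Igl or Tcr, or ending in Rik, had been left out. This left out Igll1 of the B lineage list. For Myb the nearest genes were Vpreb3 (Pearson r 0.997), Ptprcap (0.991), Cecr2 (0.990), Pou2af1 (0.990) and Dpp4 (0.989). Vpreb3 and Pou2af1 are B lineage genes of the marker list, and Ptprcap encodes a protein bound to CD45 in lymphocytes. For Spi1 they were Slc15a3 (0.930), Tbxas1 (0.924), Slc11a1 (0.918), Cd84 (0.916) and Gp49a (0.916). For Gata1 they were Nbeal2 (0.967), Rhag (0.959), Map3k9 (0.956), Trim30a (0.956) and Slfn14-ps (0.955), with Rhag a red cell membrane gene and Nbeal2 a gene of platelet granules. For Gata2 they were Rps6kb2 (0.935), Rab4a (0.925), Ppp1r16a (0.920), Ccdc86 (0.891) and Srsf9 (0.890). The points share libraries and groups, so a gene with the same group pattern has a high r.

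Promoter windows were given for 8 of the 10 members, 13 windows in all, and 32851 windows of the same length over all genes served for comparison. AGATAA was found in 1 member window, of Tal1 at 205 bases before its start, and in 9.99% of all windows. AGGAAG was found in 4 member windows, of Gfi1, Ikzf1, Runx1 and Gata1, and in 29.5% of all. TGTGGT (14.0% of all), TTGCGCAA (0.164%) and AGGTCA (14.0%) were found in 0 member windows. The loose motifs AACNG of Myb and CAGNTG, the E-box that Tal1 and E proteins bind, were in 6 and 2 of the 13 and in 74.2% and 44.8% of all. These are letters in a window and carry no measure of binding.

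Exons of Myb, Bcl11a, Gfi1 and Runx1 share 559, 316, 101 and 106 bases with annotated genes on the other strand. Whether the counting used strand is not given in the sources used here, so reads from these stretches cannot be assigned to a strand.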

How the data were processed

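Poly-A RNA of the dissected condylar fibrocartilage was sequenced (TruSeq; RIN of at least 9 and HiSeq2500 or HiSeq4000, per the labels' protocols, which do not say which instrument read which library). The submitters' processing notes name TopHat, build mm9 and bcl2fastq 2.17. Not given in the sources used here are the counting program, its annotation and its use of strand. The authors deposited raw counts per gene symbol, 1 column per sample, and 0 columns lacked a sample. The authors' tables of pairwise comparisons were not used.

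In R 4.3.3, edgeR 4.0.16 kept genes with filterByExpr (minimum count 10, minimum total 15), which left 14531 genes with 99.98% of counts, and scaled libraries by TMM. A robust quasi-likelihood model with 4 groups was fitted to all 11 samples, with spread pooled over groups on 7 residual degrees of freedom (common coefficient of biological variation 15.8%). Genes were called at a Benjamini-Hochberg adjusted p under 0.05 over all tested genes. CPM are TMM-scaled, and SE is the size of the log2 difference over the square root of F. The fit was tested on simulated data. No 2 libraries of a group matched within sampling noise. Intervals and floors of 3 counts cover counting error only.

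The members and gene lists were chosen with earlier results of these data known. All members were named; from other lists up to 4 called genes of smallest p per comparison, and as nearest genes the 5 of highest Pearson r. Some genes that the rule would name are not reported here. Samples with the same replicate number in KO E2 and KO Plb deviated together from their group means (3 pairs, r 0.183 to 0.42), so the blocked fit is given beside that comparison where it clearly moved a count of calls printed there; the pairing comes from the numbers in the labels and this check. The other comparisons did not meet it. KO against WT under Plb had only 2 such pairs (r 0.119 and 0.186), and its blocked counts are given for the members and over all genes. Alternatives were RLE size factors, no filter, DESeq2 1.42.0, limma-voom (limma 3.58.1), Rn45s left out, the replicate block, and each library left out. Sequences are from RefSeq (GRCm38.p6), lengths and exon overlaps from GENCODE M21 (GRCm38).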

Additional observations from a re-analysis of the deposited data

Results flagged for a closer look

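Myb, Bcl11a and Ikzf1 are listed because the estradiol effect differed between the genotypes in the fit across all genes: the effect in KO minus that in WT was 6.36 for Myb, 4.43 for Bcl11a and 2.84 for Ikzf1 on the log2 scale. The genes were chosen with these differences known, so the values are a description, and passing the threshold adds no support.

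Gfi1 and Cebpe are listed because every KO E2 library lay above every KO Plb library while every WT E2 library lay below both WT Plb libraries, a pattern seen in 323 of 14531 genes (2.22%). For this pattern itself no test was made. In the fit across genes their differences of effect, 1.04 for Gfi1 and 9.00 for Cebpe on the log2 scale, did not pass the threshold, and the Cebpe value rests on 2 counts in WT E2. All 5 genes were chosen with these values known. Groups had 2 or 3 samples, too few for a rule on single outlying libraries.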

How the results depend on the processing

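No member's log2 difference changed sign where it had passed; of 850 member values under alternatives, 826 moved by less than the spread between replicates and 24 by more. Over all genes, E2 against Plb in KO gave 396 calls (952 with DESeq2, 629 with the replicate block, 105 to 505 with 1 library left out), and for the members 3 (5 with DESeq2, 5 with the block, 0 to 4 with 1 left out). E2 against Plb in WT gave 225 (656 with DESeq2, 128 with limma-voom, 113 to 285 with 1 left out), and 2 members (4 with DESeq2, 0 with limma-voom, 4 with the block, 2 to 3 with 1 left out). KO against WT under Plb gave 1 (40 with DESeq2, 17 with the block, 1 to 50 with 1 left out), and 0 members (1 with the block, Myb). KO against WT under E2 gave 1667 (867 to 1850 with 1 left out, the lowest without KO E2 replicate 2), and 6 members (5 to 7). The difference of effects gave 167 (561 with DESeq2, 69 with limma-voom, 301 with the block, 68 to 270 with 1 left out), and 3 members (5 with DESeq2, 2 to 4 with 1 left out). The lowest counts came without WT E2 replicate 1 for E2 in WT and for the difference of effects, and without KO Plb replicate 1 for E2 in KO; the 50 calls under Plb came without WT Plb replicate 1. The causes of these shifts were not tested. Outside KO, same-numbered samples did not deviate together throughout (r -0.188 to 0.186), and 8 of 11 samples correlated best with a sample of their own number, a hint from the data and not the design. Levels of Cebpe and Gata1 near the floor of 3 counts are limited by depth.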
